A study of Mus musculus with 12 samples.

Results

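Genes of the interferon response and of the MHC class I antigen presentation pathway were measured in mouse progenitor B cells with or without the transcription factor Sox4. A list of 46 genes was matched by symbol to the probes of an Illumina bead array, and a gene was kept where a probe was detected, with a detection p-value under 0.05, on at least 3 of the 12 arrays. Of the 46 genes, 45 had an annotated probe and 41 were kept, among 10259 genes kept by the same rule on the whole array. Each kept gene is represented by its brightest kept probe and is called a member below. Ifi44 was not analysed here. The other genes that were not kept were Ifit1, detected on 2 arrays, and Oas1a, Oas3 and Xaf1, detected on none. Nearest to the limit, Mx1 was detected on 3 arrays and Iigp1 on 4. Mx1 read between 5.48 and 5.66 on the log2 scale on its 3 arrays, and Ifit1 read between 4.42 and 5.37 on the 6 arrays of the same experiment.

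Total RNA came from progenitor B cells of embryonic fetal liver of C57BL/6 mice, with 3 arrays for each of 4 groups. The loss experiment compared Sox4fl/fl cells, in which the Sox4 gene is floxed, with Sox4fl/fl SE-Cre cells, which also carry SE-Cre (SE-Cre cells below). Both groups of the gain experiment, labelled HA and HA-Sox4, were Sox4fl/fl SE-Cre cells that p190 Bcr-Abl, an oncogenic fusion of a tyrosine kinase, had immortalized. SE-Cre was in no group combined with unfloxed Sox4, so what comes from the Cre and what from the loss of Sox4 cannot be told apart. The sources used here do not give the promoter of SE-Cre, the embryonic day, whether the immortalized cells were 1 clone, or whether the replicates came from separate animals or cultures. If they did not, the spread behind the p-values may be technical, and in either case the p-values cover these samples alone.

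Interferons are secreted cytokines that cells make when they sense viral nucleic acid. Their receptors act through the kinases Jak1, Jak2 and Tyk2 on STAT proteins, which with Irf9 bind a DNA element called the ISRE, or as STAT dimers bind a GAS element, and switch on interferon-stimulated genes. The products block viral RNA and protein synthesis, tag proteins with Isg15 or attack vacuoles that hold pathogens. The same signals raise the MHC class I pathway, in which immunoproteasome subunits cut proteins into peptides, the Tap transporter carries the peptides into the endoplasmic reticulum, and class I heavy chains with B2m present them at the cell surface.

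The targeted gene was read before the members. On the log2 scale Sox4 read 10.67, 10.55 and 10.60 in Sox4fl/fl cells and 4.60, 4.65 and 4.27 in SE-Cre cells, a difference of -6.10 ± 0.15 (SE). In the immortalized cells Sox4 was detected on none of the HA arrays and on all 3 HA-Sox4 arrays, at 5.96, 5.14 and 5.32, a rise of at least 1.18-fold (limma, adjusted p = 0.033). Its probe entered this test only through the HA-Sox4 arrays, so the direction was fixed by the detection rule. The sources used here do not say whether the HA-Sox4 message carries the sequence of this probe. Each array detected between 36.1% and 40.0% of its probes. Of 14 B lineage markers with a probe, 12, 11, 12 and 14 were detected on all 3 arrays of Sox4fl/fl, SE-Cre, HA and HA-Sox4 cells. Pax5 was undetected in Sox4fl/fl cells, and Dntt and Rag2 were undetected in SE-Cre and HA cells. Of the markers of other cells, those detected on all 3 arrays of some group were Lyz2 of 10 myeloid markers, Bst2, Siglech and Tcf4 of 9 dendritic, Thy1, Klrd1 and Nkg7 of 10 T and NK, Hbb-bt of 7 erythroid and megakaryocyte, Cxcl12 and Pecam1 of 8 stromal and endothelial, and none of 7 hepatocyte markers. Cd14, Itgam, Itgax, Cd3e, Hba-a1 and Alb were detected on no array. In bulk RNA, fewer cells of a type and less RNA per cell cannot be told apart.

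To show what the array's members have upstream of their start sites, 4 promoters are printed from RefSeq (GRCm38.p6), each 250 bases ending at the base before the start and read 5′ to 3′ on the gene's strand. They belong to 3 of the 4 members with the largest called differences on gain of Sox4 (Rsad2, Ifit3 and Samhd1) and to Gbp2, which was called in both experiments and was added after its values were seen. The remaining gene of the 4 is Tap2. Capitals mark matches to the core of the ISRE, GAAANNGAA, or of the GAS element, TTCNNNGAA, on either strand.
Rsad2, chr12:26456453-26456702, minus strand: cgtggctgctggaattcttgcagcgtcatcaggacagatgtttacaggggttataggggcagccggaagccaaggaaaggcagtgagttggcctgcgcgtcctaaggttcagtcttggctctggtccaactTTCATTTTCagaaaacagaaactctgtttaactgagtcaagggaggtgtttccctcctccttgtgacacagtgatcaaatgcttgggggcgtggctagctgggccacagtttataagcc
Ifit3, chr19:34583279-34583528, plus strand: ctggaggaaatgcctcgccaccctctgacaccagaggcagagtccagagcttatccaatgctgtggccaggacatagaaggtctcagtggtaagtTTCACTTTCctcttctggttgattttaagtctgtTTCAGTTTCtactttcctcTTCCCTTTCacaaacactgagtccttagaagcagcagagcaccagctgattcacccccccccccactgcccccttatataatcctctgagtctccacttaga
Samhd1, chr2:157135097-157135346, minus strand: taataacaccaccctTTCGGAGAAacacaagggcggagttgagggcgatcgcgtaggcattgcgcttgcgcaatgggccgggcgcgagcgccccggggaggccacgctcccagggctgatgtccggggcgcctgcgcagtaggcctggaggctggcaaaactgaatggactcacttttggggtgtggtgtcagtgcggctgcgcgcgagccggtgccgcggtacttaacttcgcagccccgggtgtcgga
Gbp2, chr3:142620413-142620662, plus strand: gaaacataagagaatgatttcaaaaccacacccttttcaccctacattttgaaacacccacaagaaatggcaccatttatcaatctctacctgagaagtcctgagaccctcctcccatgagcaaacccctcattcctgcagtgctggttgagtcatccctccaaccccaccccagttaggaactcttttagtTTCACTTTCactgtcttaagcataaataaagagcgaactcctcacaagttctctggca
Rsad2 has 1 ISRE core, Ifit3 has 3 and Gbp2 has 1, while Samhd1 has 1 GAS core and no ISRE core.

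RefSeq promoters matched 37 of the 46 listed genes, and the motifs were counted in windows from 250 bases before to 50 after the start. An ISRE core lay in 20 of the 37 (54.1%) and in 9.76% of 27025 genes with a promoter. A GAS core lay in 11 (29.7%), against 9.55% of all. The SOX core AACAAAG lay in 3 (8.11%), against 6.68% of all, and those 3 were Irf9, Ifit2 and Gbp3. The 9-base ISRE and GAS cores can overlap each other. By direction on gain of Sox4, an ISRE core lay in 4 of 7 members that were higher, in 3 of 11 that were lower and in 9 of 14 that were not called. Such a match describes the letters in this window and is not a measured binding site. Several members are also neighbours on the chromosome with no protein-coding gene between them: Psmb9, Tap1, Psmb8 and Tap2 on chromosome 17, Parp14, Dtx3l and Parp9 on chromosome 16, Ifit2 and Ifit3 on chromosome 19, and Oasl2 and Oasl1 on chromosome 5.

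**Figure D1:**
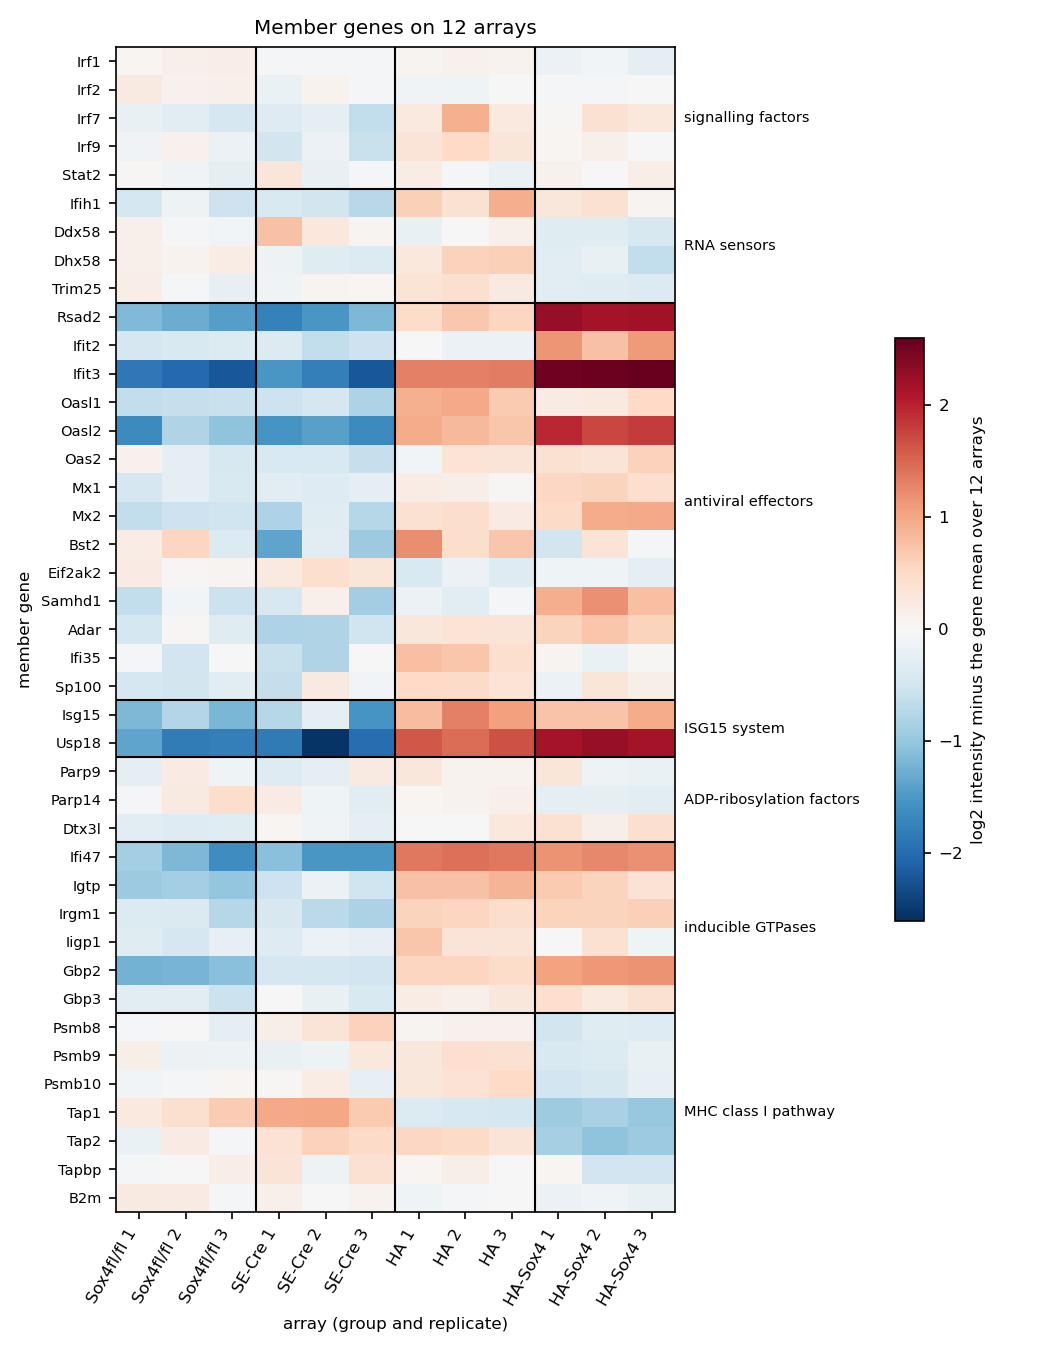
Level of the 41 members on the 12 arrays, normalized together. Rows are genes in order of role, columns are arrays, and colour is log2 intensity minus the gene's mean over the 12 arrays. Ifit3, Usp18, Rsad2, Oasl2 and Ifi47 were low on all 6 primary arrays and high on all 6 immortalized arrays, and Psmb8, Psmb9, Psmb10, Tap1 and Tap2 were lower in HA-Sox4 than in HA cells.

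Detection of the members differed between the primary and the immortalized cells. On all 3 arrays of a group, 29 of 41 members (70.7%) were detected in Sox4fl/fl cells, 27 (65.9%) in SE-Cre cells, 40 (97.6%) in HA and 39 (95.1%) in HA-Sox4 cells. Over all 10259 kept genes these shares were 78.2%, 76.0%, 78.7% and 83.0%. Members that were undetected on every array of both primary groups were Irf7, Oasl1, Mx1 and Iigp1. A comparison within an experiment used members detected on at least 3 of its 6 arrays, which left 32 members for the loss experiment and all 41 for the gain experiment. The heat map shows the level of each member on each array.

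The loss experiment asks which genes respond when Sox4 is deleted in primary progenitor B cells. Few members moved: 2 of 32 were higher in SE-Cre cells (Gbp2 and Igtp) and 1 was lower (Bst2), by limma with an adjusted p under 0.05. On the whole array 16.4% of 8902 genes were called, 7.43% higher and 8.96% lower, and of the members 9.38% were called, below that background. The median difference of the members was 0.03 on the log2 scale, and that of all genes was 0.02. Summed linear levels of marker lists also moved: the myeloid list from between 115 and 159 in Sox4fl/fl to between 257 and 386 in SE-Cre cells, the stromal and endothelial list from between 599 and 762 to between 161 and 211, and the dendritic list, which holds Bst2, from between 3781 and 4040 to between 2612 and 3283. Few genes of these lists could be tested. Of the 2 stromal and endothelial genes tested, 1 was called lower at -2.80 and the other differed by 0.07 with no call. Of the 2 myeloid genes tested, 1 was called higher and 1 was not called. All 3 dendritic genes tested had negative fitted differences, and 1 was called lower. What part these lists had in the members' differences was not tested.

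Gbp2 is a guanylate-binding protein, an interferon-induced GTPase that assembles on vacuoles holding pathogens. It read 9.74, 9.75 and 9.87 in Sox4fl/fl cells and 10.51, 10.50 and 10.45 in SE-Cre cells. All SE-Cre arrays lay above all Sox4fl/fl arrays, and the difference was 0.70 ± 0.13 (SE), 1.62-fold, with an adjusted p of 0.00357. A second Gbp2 probe differed by 0.37 with an adjusted p of 0.118. Igtp, an immunity-related GTPase of the same kind of defence, read 7.51, 7.59 and 7.46 in Sox4fl/fl cells and 7.92, 8.31 and 7.96 in SE-Cre cells. The groups did not overlap, and the difference was 0.54 ± 0.15 (SE; adjusted p = 0.030).

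Bst2, also called tetherin, holds budding virus particles at the cell membrane. It read 5.26, 5.58 and 4.83 in Sox4fl/fl cells and 4.19, 4.89 and 4.47 in SE-Cre cells, where it was detected on 1 of 3 arrays. The lowest Sox4fl/fl array lay below the highest SE-Cre array, so the groups overlapped, and the difference was -0.71 ± 0.22 (SE; adjusted p = 0.044). The call of Igtp was lost without any single Sox4fl/fl array (adjusted p of 0.0863, 0.0683 and 0.0931) and without SE-Cre replicate 2 (adjusted p of 0.105). That of Bst2 was lost when Sox4fl/fl replicate 1 or 2 was left out (adjusted p of 0.117 and 0.178), or SE-Cre replicate 1 or 3 (0.151 and 0.109).

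Among the other members of the loss experiment the MHC class I genes gave no call. Of those 7, 6 had a positive fitted difference, up to 0.47 for Tap2, which read 7.86, 8.25 and 8.01 in Sox4fl/fl cells and 8.40, 8.62 and 8.51 in SE-Cre cells (adjusted p = 0.056). Tap1, the partner of Tap2 in the peptide transporter, differed by 0.45 ± 0.16 (SE; adjusted p = 0.079). Among the signalling factors Irf1, Irf2, Irf9 and Stat2, fitted differences on the brightest probes lay between -0.36 and 0.13 with no call. A dimmer Irf1 probe, detected on all 12 arrays, was called lower at -0.60 (limma, adjusted p = 0.035). Further Irf1 probes differed by -0.45 and -0.28 with no call, so the result for Irf1 depends on the probe. The 3 RNA sensors that could be tested, Ddx58, Dhx58 and Trim25, lay between -0.39 and 0.36 with no call. At an unadjusted p under 0.05 in limma, Irf9 and Dhx58 were lower, and of the 7 MHC class I members Psmb8, Tap1 and Tap2 were higher. The share of all genes at that unadjusted threshold was not computed, so these cannot be set against a background. Rsad2 and Ifit3, which carried the largest rises of the gain experiment, differed here by -0.11 ± 0.15 and 0.15 ± 0.16 (SE), and Rsad2 was detected on only 3 of the 6 arrays.

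**Figure D2:**
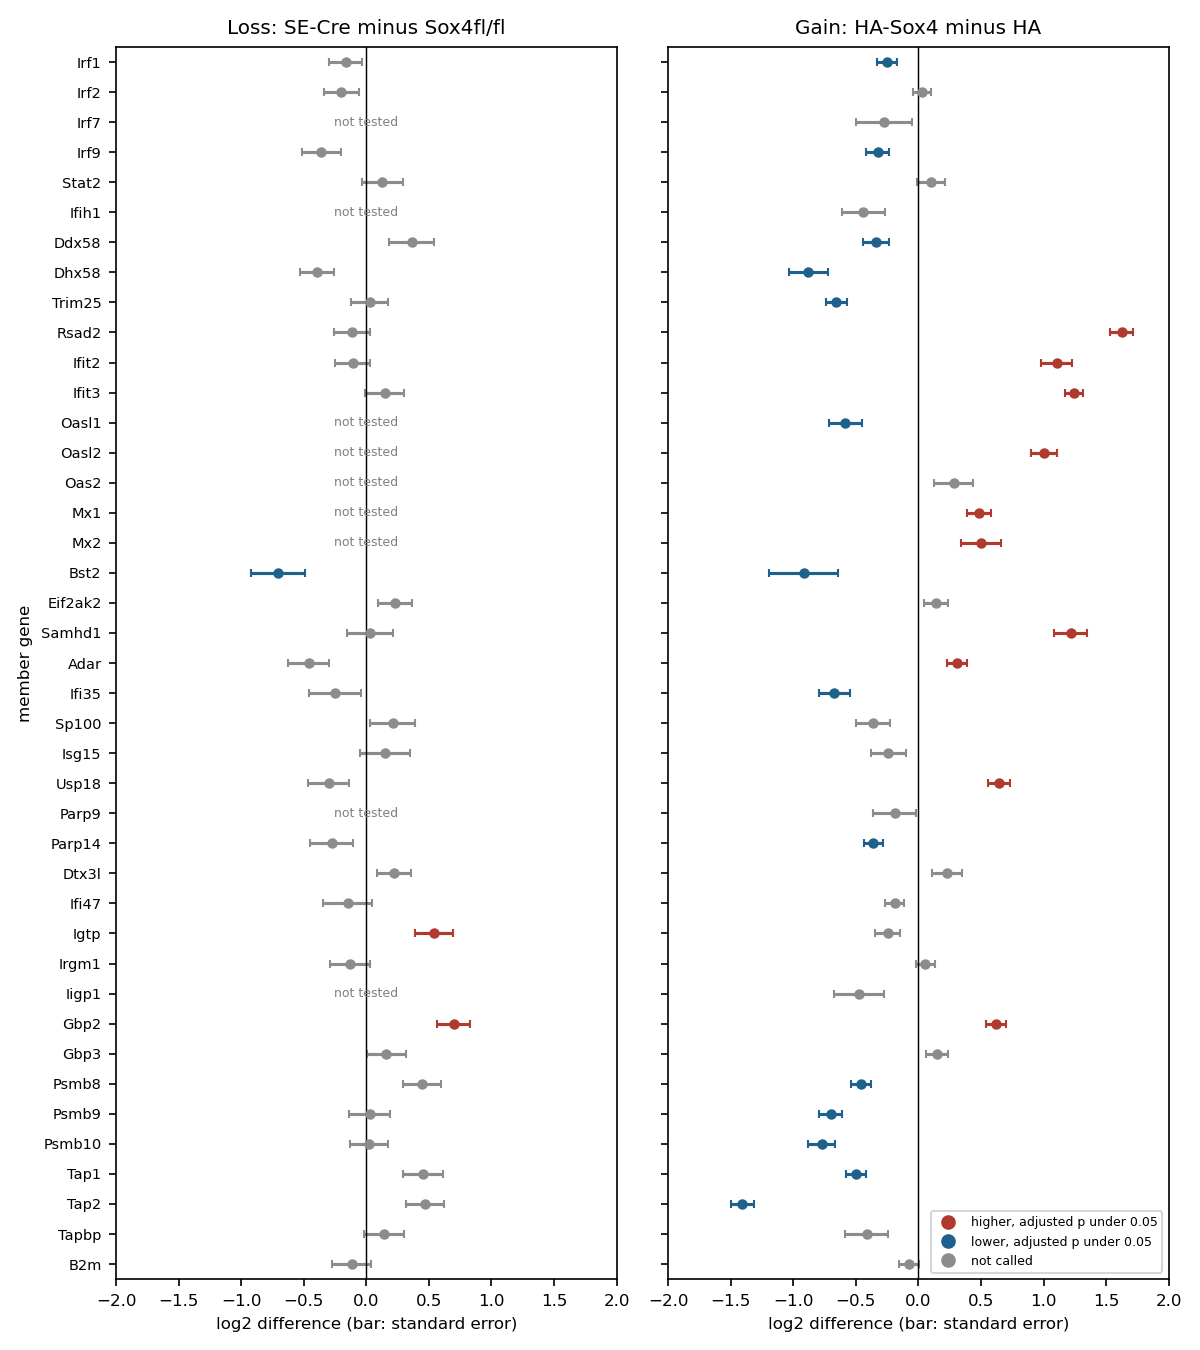
Log2 difference of each member on loss (left, SE-Cre minus Sox4fl/fl) and on gain of Sox4 (right, HA-Sox4 minus HA). Points are fitted differences of 3 against 3 arrays, bars are standard errors, and colour marks an adjusted p under 0.05. On loss 3 points are coloured, and on gain 10 coloured points lie above 0 and 14 below it, while all 7 MHC class I genes lie below 0.

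The gain experiment asks the reverse question, what changes when HA-Sox4 is put into immortalized SE-Cre cells. Of the 41 members, 10 were higher in HA-Sox4 cells and 14 were lower. Antiviral effectors went both ways, with 8 of 14 higher and 3 lower, while 5 of 7 MHC class I genes and 3 of 4 RNA sensors were lower and none of these was higher. One of the 8 effectors, Mx1, was detected in HA-Sox4 cells alone and could only be higher, and among the 38 members detected on every array of the experiment 9 were higher and 14 lower. On the whole array 44.1% of 9221 genes were called, 21.3% higher and 22.7% lower. Of the members 24.4% were higher and 34.1% lower, so the higher share was near that of all genes and the lower share above it. The median difference was -0.24 for the members and -0.05 for all genes. Of the 24 calls, 18 held in every fit without 1 array in which the gene could be tested. Mx1 is counted among these, but without any of the 3 HA-Sox4 arrays it failed the detection rule and was not tested. Summed levels of marker lists moved with the groups here too: between HA and HA-Sox4 cells the myeloid list went from between 321 and 385 to between 83.3 and 114, the erythroid and megakaryocyte list from between 80.9 and 108 to between 474 and 675, the T and NK list from between 76.2 and 82.5 to between 194 and 222, the stromal and endothelial list from between 313 and 336 to between 376 and 445, the B lineage list from between 44007 and 48303 to between 50176 and 51376, and the dendritic list from between 2127 and 2330 to between 3882 and 4226. The myeloid, erythroid and megakaryocyte, and T and NK lists had 1 tested gene each. These were Lyz2 at -2.52, Hbb-bt at 2.87 and Nkg7 at 2.17. The 2 stromal and endothelial genes tested differed by 0.12 and 0.43. In the dendritic list the bright gene Tcf4, which B cells also express, was higher by 1.02, while Siglech and Bst2 were lower by -0.55 and -0.92. The part of these lists in the members' differences was not tested.

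The largest rises among the members were those of antiviral effectors. Rsad2 (viperin), which makes a chain-terminating nucleotide, read 7.26, 7.49 and 7.35 in HA and 9.06, 8.95 and 8.97 in HA-Sox4 cells. The groups lay far apart, with a difference of 1.62 ± 0.09 (SE), 3.08-fold, and an adjusted p of 1.63e-05. Ifit3, whose family binds viral RNA and hinders its translation, read 8.94, 8.94 and 8.97 in HA and 10.17, 10.19 and 10.23 in HA-Sox4 cells. Its difference was 1.24 ± 0.07 (SE), 2.37-fold, with an adjusted p of 2.05e-05. Its neighbour Ifit2 read 9.89, 9.75 and 9.75 in HA and 11.04, 10.66 and 11.004 in HA-Sox4 cells. All HA-Sox4 arrays of Ifit2 lay above all HA arrays, and the difference was 1.11 ± 0.12 (SE; adjusted p = 0.00048). The promoters of Rsad2 and Ifit3 printed above hold ISRE cores, and that of Ifit2 holds a SOX and a GAS core and no ISRE core in the window searched.

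Samhd1, which breaks down deoxynucleotides and so limits reverse transcription, read 5.74, 5.59 and 5.89 in HA and 6.93, 7.18 and 6.77 in HA-Sox4 cells. The difference was 1.22 ± 0.13 (SE), 2.33-fold, with an adjusted p of 0.00044 and no overlap of the groups. Oasl2, an oligoadenylate synthetase-like protein, read 7.40, 7.26 and 7.15 in HA and 8.39, 8.17 and 8.24 in HA-Sox4 cells (difference 1.00 ± 0.10, SE; adjusted p = 0.00033). Its neighbour Oasl1, which in mouse restrains translation of Irf7, went the other way. Oasl1 read 6.58, 6.64 and 6.32 in HA and 5.79, 5.84 and 6.15 in HA-Sox4 cells, a difference of -0.59 ± 0.13 (SE; adjusted p = 0.011).

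The Mx proteins are dynamin-like GTPases that trap viral components. Mx1 was undetected on all 3 HA arrays (5.19, 5.14 and 4.97) and detected on all 3 HA-Sox4 arrays (5.60, 5.66 and 5.48), which made it at least 1.27-fold higher (adjusted p = 0.0066). It entered the test only through the HA-Sox4 arrays, so its direction was fixed by the detection rule. Its call was lost with no background correction, on the authors' processed values (adjusted p of 0.0796 in both) and with a trended robust prior (0.0548). Mx2 read 6.24, 6.31 and 6.04 in HA and 6.36, 6.85 and 6.87 in HA-Sox4 cells. Its difference of 0.50 ± 0.16 (SE; adjusted p = 0.041) was called, and the call was lost without HA replicate 1, 2 or 3 or HA-Sox4 replicate 2 or 3 (adjusted p between 0.0554 and 0.12). Adar, the enzyme that edits adenosine to inosine in RNA, differed by 0.31 ± 0.08 (SE; adjusted p = 0.020) on its brightest probe, a call that was lost without HA replicate 1 (adjusted p = 0.0567) or HA-Sox4 replicate 2 (adjusted p = 0.0606). The other kept probes of Adar differed by -0.99, -0.96 and -0.03, and the mean over its probes was lower in HA-Sox4 cells by -0.42 (adjusted p = 0.0049), so the direction for Adar depends on the probe.

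Bst2 and Ifi35 were lower among the effectors. Bst2 read 7.39, 6.62 and 6.90 in HA and 5.57, 6.52 and 6.07 in HA-Sox4 cells, a difference of -0.92 ± 0.28 (SE; adjusted p = 0.034) that was lost without HA replicate 1 or 3 or HA-Sox4 replicate 1 or 3 (adjusted p between 0.0681 and 0.0903). The groups did not overlap, but the highest HA-Sox4 array lay close to the lowest HA array. Ifi35, an interferon-induced leucine zipper protein, read 8.67, 8.60 and 8.32 in HA and 7.95, 7.70 and 7.91 in HA-Sox4 cells (difference -0.67 ± 0.12, SE; adjusted p = 0.0047). Eif2ak2 (PKR), which halts translation when it binds double-stranded RNA, differed by 0.14, Oas2 by 0.28 and Sp100 by -0.37, and none of these passed the test. Dimmer kept probes of Sp100 differed by 0.31 (limma, adjusted p = 0.018) and 0.18, so the direction for Sp100 depends on the probe.

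**Figure D3:**
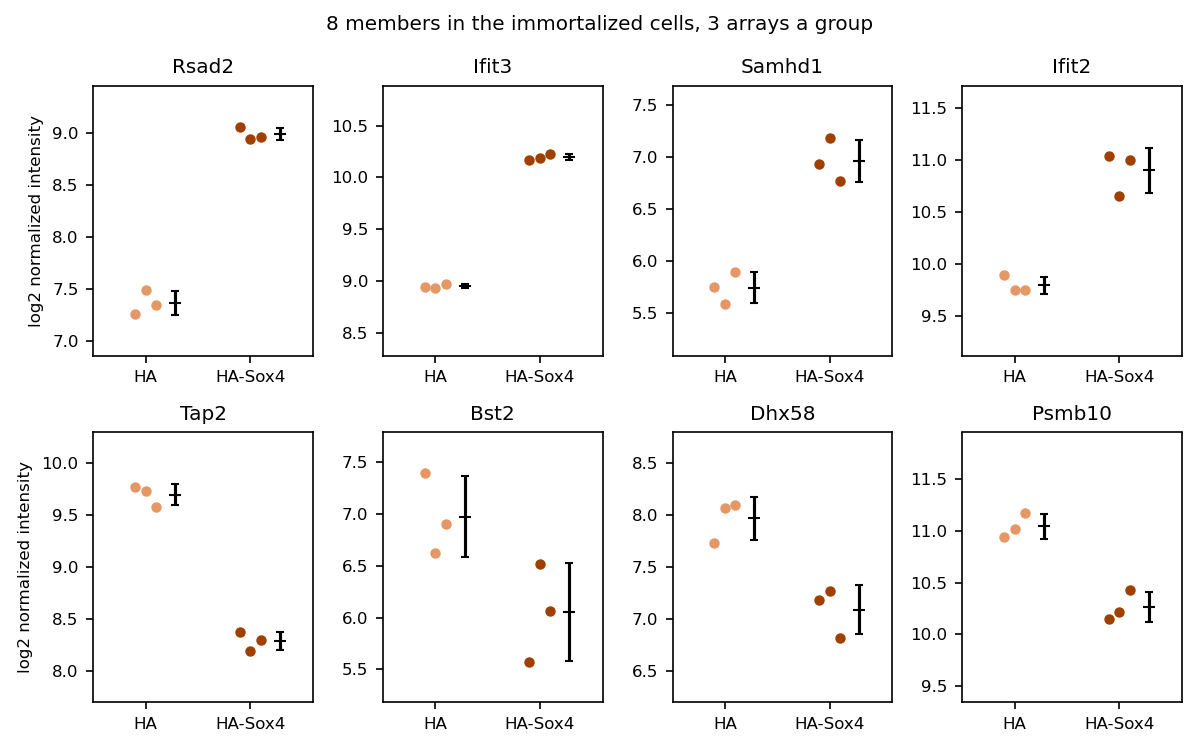
Log2 normalized intensity in the gain experiment of the 4 members with the largest called rises (upper row) and falls (lower row) in HA-Sox4 cells. Points are single arrays, and the bar beside them is the mean ± SD (n = 3). In every panel the arrays of the groups do not overlap, and Bst2 has the widest spread.

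Of the 4 RNA sensors, 3 were called lower in HA-Sox4 cells, where 22.7% of all genes were lower. The call of 1 of these sensors, Ddx58, was not stable. Dhx58 (LGP2), a helicase that tunes the other sensors, read 7.73, 8.07 and 8.10 in HA and 7.18, 7.27 and 6.82 in HA-Sox4 cells. The difference was -0.88 ± 0.15 (SE), 1.84-fold, with an adjusted p of 0.0039, and the other 2 kept probes of the gene differed by -0.82 and -0.93. Trim25, the ubiquitin ligase that activates the sensor RIG-I, read 11.06, 11.13 and 10.93 in HA and 10.43, 10.38 and 10.34 in HA-Sox4 cells. Its groups lay apart by 0.65 (difference -0.65 ± 0.09, SE; adjusted p = 0.0011). Ddx58, which encodes RIG-I, read 7.53, 7.73 and 7.85 in HA and 7.41, 7.40 and 7.30 in HA-Sox4 cells (difference -0.34 ± 0.10, SE; adjusted p = 0.038). That call of Ddx58 was lost without any single array but HA replicate 1 (adjusted p of up to 0.106), with scaling to a common median (0.235), with a replicate block (0.0793) and without a detection filter (0.0774). Ifih1, which encodes the sensor MDA5, differed by -0.44 and did not pass the test (adjusted p = 0.081).

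Interferon signalling factors changed little. Irf9, a DNA-binding partner of Stat2, read 9.17, 9.34 and 9.15 in HA and 8.89, 8.97 and 8.83 in HA-Sox4 cells (difference -0.33 ± 0.09, SE; adjusted p = 0.025). A second Irf9 probe differed by -0.08. Irf1, an activator that interferon gamma induces, read 11.98, 12.02 and 12.01 in HA and 11.76, 11.84 and 11.67 in HA-Sox4 cells (difference -0.25 ± 0.08, SE; adjusted p = 0.043). All 4 kept Irf1 probes had negative differences, between -0.25 and -0.55. The call of Irf1 was lost without any single array but HA-Sox4 replicate 2 (adjusted p of up to 0.119), and that of Irf9 without HA replicate 2 or HA-Sox4 replicate 1 or 3 (adjusted p of up to 0.0755). Stat2 differed by 0.10, Irf2 by 0.03 and Irf7 by -0.28, with no call.

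The ISG15 system attaches the ubiquitin-like protein Isg15 to other proteins, and Usp18 takes it off and also dampens the interferon receptor. Usp18 read 9.13, 8.99 and 9.18 in HA and 9.71, 9.81 and 9.71 in HA-Sox4 cells (difference 0.64 ± 0.09, SE; adjusted p = 0.0012). A dimmer second probe of Usp18 differed by 0.09, and the mean of both was not called (adjusted p = 0.092). Isg15 itself read 7.32, 7.83 and 7.59 in HA and 7.27, 7.27 and 7.48 in HA-Sox4 cells, and the groups overlapped (difference -0.24 ± 0.14, SE; adjusted p = 0.22). Of the ADP-ribosylation factors, Parp14 read 9.85, 9.89 and 9.93 in HA and 9.53, 9.56 and 9.49 in HA-Sox4 cells (difference -0.36 ± 0.08, SE; adjusted p = 0.0082), and the call was lost under scaling to a common median (-0.33, adjusted p = 0.0821). Its neighbours Dtx3l and Parp9 differed by 0.23 and -0.19 with no call.

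Gbp2 was the only inducible GTPase called on gain of Sox4. It read 12.77, 12.76 and 12.67 in HA and 13.27, 13.37 and 13.41 in HA-Sox4 cells (difference 0.62 ± 0.08, SE; adjusted p = 0.0011), and its other kept probes differed by 0.75 and 0.74. Irgm1, a regulator of the immunity-related GTPases, differed by 0.05 on its brightest probe, while 2 dimmer probes differed by 0.82 (adjusted p = 0.00071) and 0.79 (adjusted p = 0.0059). Igtp, Ifi47, Gbp3 and Iigp1 differed by -0.25, -0.19, 0.15 and -0.47, with no call.

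MHC class I pathway members were lower in HA-Sox4 cells as a group: 5 of 7 were called lower, against 22.7% of all genes. None was called higher, and all 7 fitted differences were negative, with a median of -0.50. Of the 5 called, Psmb9, Tap1, Psmb8 and Tap2 are neighbours on chromosome 17. Tap2 read 9.78, 9.74 and 9.58 in HA and 8.37, 8.19 and 8.30 in HA-Sox4 cells. The difference was -1.41 ± 0.09 (SE), 2.66-fold, with an adjusted p of 3.76e-05, and it was the largest fall among the members. Tap1 read 8.97, 8.91 and 8.87 in HA and 8.40, 8.49 and 8.36 in HA-Sox4 cells, a difference of -0.50 ± 0.08 (SE; adjusted p = 0.0026). For neither transporter subunit did the groups overlap.

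The 3 catalytic immunoproteasome subunits were lower too. Psmb10 read 10.94, 11.02 and 11.17 in HA and 10.15, 10.22 and 10.43 in HA-Sox4 cells (difference -0.77 ± 0.11, SE; adjusted p = 0.0015). Psmb9 read 11.93, 12.09 and 12.04 in HA and 11.24, 11.28 and 11.44 in HA-Sox4 cells (difference -0.70 ± 0.09, SE; adjusted p = 0.0011). Psmb8 read 12.60, 12.64 and 12.64 in HA and 12.06, 12.23 and 12.21 in HA-Sox4 cells (difference -0.46 ± 0.08, SE; adjusted p = 0.0042). All HA-Sox4 arrays lay below all HA arrays in each of the 3 genes, and second probes of Psmb10 and Psmb8 differed by -0.97 and -0.53. The calls of Tap1, Tap2, Psmb8, Psmb9 and Psmb10 held under every alternative that was run, scaling to a common median included. Tapbp, the chaperone that bridges Tap and the class I molecule, differed by -0.41 (adjusted p = 0.096), with a second probe at -0.54 (adjusted p = 0.017). B2m, the light chain, read 14.37, 14.42 and 14.46 in HA and 14.33, 14.40 and 14.29 in HA-Sox4 cells, a difference of -0.08 ± 0.08 (SE; adjusted p = 0.48).

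Other MHC class I pathway genes, outside the members, were counted from a list written for this pathway. Of 16 tested on gain, 12 were lower, none was higher and the median difference was -0.42; of 15 tested on loss, none was called, with a median of -0.02. With the members this made 17 of 23 (73.9%) lower on gain, against 22.7% of all genes, and 0 of 22 called on loss, against 16.4% of all genes. At an unadjusted p under 0.05 in limma, 4 of those 22 were higher in SE-Cre cells (Psmb8, Tap1, Tap2 and Psme1) and 1 was lower (H2-M3). No share of all genes was computed at this unadjusted threshold, so these counts have no background and show no excess. Tapbpl, a peptide editor related to Tapbp, read 8.64, 8.80 and 8.68 in HA and 7.44, 7.49 and 7.35 in HA-Sox4 cells (difference -1.28 ± 0.09, SE; adjusted p = 4.28e-05). Erap1, which trims peptides in the endoplasmic reticulum, differed by -1.11 ± 0.18 (SE; adjusted p = 0.0025). The chaperone Calr differed by -0.75 and the proteasome activator subunit Psme1 by -0.69, both called lower. The class I heavy chains H2-K1 and H2-D1, named after their values were seen, differed by -0.41 ± 0.08 and -0.42 ± 0.09 (SE), both called lower. The constitutive catalytic subunits that the immunoproteasome replaces, Psmb5, Psmb6 and Psmb7, also looked at after the values were seen, differed by -0.06, 0.11 and -0.02 with no call. Nlrc5, the transactivator of class I genes, read 10.46, 10.40 and 10.48 in HA and 9.72, 10.01 and 9.99 in HA-Sox4 cells (difference -0.54 ± 0.10, SE; adjusted p = 0.0053).

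Other parts of the interferon pathway were mixed. Of 10 interferon genes with a probe, only Ifna1 was detected on all 3 arrays of any group, in Sox4fl/fl cells, and in HA cells none was detected on any array. Ifngr1, a chain of the interferon gamma receptor, was higher in both experiments, by 1.27 ± 0.18 on loss (adjusted p = 0.00045) and 0.49 ± 0.10 on gain (SE; adjusted p = 0.0072). Its partner chain Ifngr2 was lower in both, by -0.56 and -0.46, and so was the kinase Tyk2, by -0.91 and -0.62. The phosphatase Ptpn6 (SHP-1) went opposite ways, at -0.77 on loss and 0.70 on gain, both called. Socs1, a feedback inhibitor of the JAK kinases, was undetected in the primary cells and was lower in HA-Sox4 cells by -0.79 (adjusted p = 0.013), and the phosphatase Ptpn2 was lower by -0.61 (adjusted p = 0.0090).

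Among 7 sensors and adaptors of nucleic acid sensing outside the members, 2 were higher and 2 lower on gain. Of all genes 21.3% were higher and 22.7% lower. Cgas, the cytosolic DNA sensor that makes cyclic GMP-AMP, read 5.30, 4.92 and 4.81 in HA cells, where it was detected on 1 of 3 arrays, and 9.12, 9.14 and 8.99 in HA-Sox4 cells. The fitted difference was 4.08 ± 0.14 (SE; adjusted p = 1.48e-06), and since most HA arrays were not above background its size is not exact. Sting1, the adaptor downstream of Cgas, read 7.53, 7.27 and 7.43 in HA and 6.52, 6.71 and 6.29 in HA-Sox4 cells (difference -0.90 ± 0.13, SE; adjusted p = 0.0016). Mavs, the adaptor of RIG-I and MDA5, was lower by -0.53 (adjusted p = 0.015). Aim2, an inflammasome DNA sensor, was undetected in SE-Cre cells, where its level was lower by at least 3.02-fold, and undetected in HA cells, with a level in HA-Sox4 cells that was higher by at least 1.14-fold. In each experiment Aim2 entered the test only through the group where it was detected, so both directions were fixed by the detection rule.

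Of the interferon-stimulated genes outside the members, 2 of 21 were higher and 10 lower on gain, where 21.3% of all genes were higher and 22.7% lower. On loss 6 of 19 were higher and 1 lower, against 7.43% and 8.96% of all genes. Ifitm1 and Ifitm3, membrane proteins that block virus entry, moved in opposite directions in the experiments. Ifitm1 read 12.06, 12.04 and 11.79 in Sox4fl/fl cells and 12.98, 12.86 and 12.99 in SE-Cre cells (difference 0.98 ± 0.14, SE; adjusted p = 0.00049). In HA cells it read 12.22, 12.21 and 12.18, and in HA-Sox4 cells 10.66, 10.71 and 10.63 (difference -1.53 ± 0.07, SE; adjusted p = 7.90e-06). Ifitm3 differed by 0.65 on loss (adjusted p = 0.0075) and by -0.86 on gain (adjusted p = 0.00014). Tgtp1, a GTPase, was higher by 0.67 on gain, and Lgals3bp, a secreted glycoprotein, was lower by -0.76. 

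The experiments were set against each other in a fit of all 12 arrays, which subtracted the difference between Sox4fl/fl and SE-Cre cells from that between HA-Sox4 and HA cells. Sox4 itself gave -5.91 ± 0.28 (SE; adjusted p = 9.98e-09), because its probe moved by far less on gain than on loss, so a gene that followed Sox4 need not lie near 0. Of the 41 members, 5 were higher by this test and 9 lower (12.2% and 22%), against 10.8% and 9.09% of 10259 genes, or 19.9% in either direction. Gbp2 gave 1.31 ± 0.14 (SE; adjusted p = 2.08e-05), as it was higher with HA-Sox4 and higher in the cells that lack Sox4. Bst2 gave -1.86 ± 0.44 (SE; adjusted p = 0.0099), being lower in HA-Sox4 cells and lower in SE-Cre cells. For Rsad2, Ifit3 and Ifit2, higher on gain and not called on loss, the values were 1.43, 1.44 and 0.99. For Tap2 the value was -0.92 ± 0.18 (SE; adjusted p = 0.0028): its intensity was lower in the cells with more Sox4 in both experiments, and by more on gain. In the loss experiment Tap2 itself was not called. All 7 MHC class I values were negative and 3 were called, those of Tap2, Psmb9 and Psmb10.

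The level of the members in the immortalized and the primary cells that lack Sox4 was compared in the same fit, as HA minus SE-Cre. Here 27 of 41 members (65.9%) were higher in HA and 2 lower (4.88%), while of all 10259 genes 24.7% were higher and 30.5% lower, 55.2% in all. The median difference was 0.61 for the members and -0.07 for all genes. Each group lay in its own experiment, so immortalization, culture, HA and the experiment as a batch cannot be told apart. Scaling each array to the same median instead of equal quantiles moved the median of all genes to 0.53, and the share of higher among called genes from 44.8% to 88.1%. The members' median was 0.67 above that of all genes with quantile normalization and 0.66 above it with the scaling, so their differences are read relative to all genes. Some members were undetected in the primary cells and could only be higher. Among the 27 members detected on all 12 arrays 15 were higher (55.6%) and 2 lower (7.41%), against 24.9% and 35.1% of 7103 such genes.

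**Figure D4:**
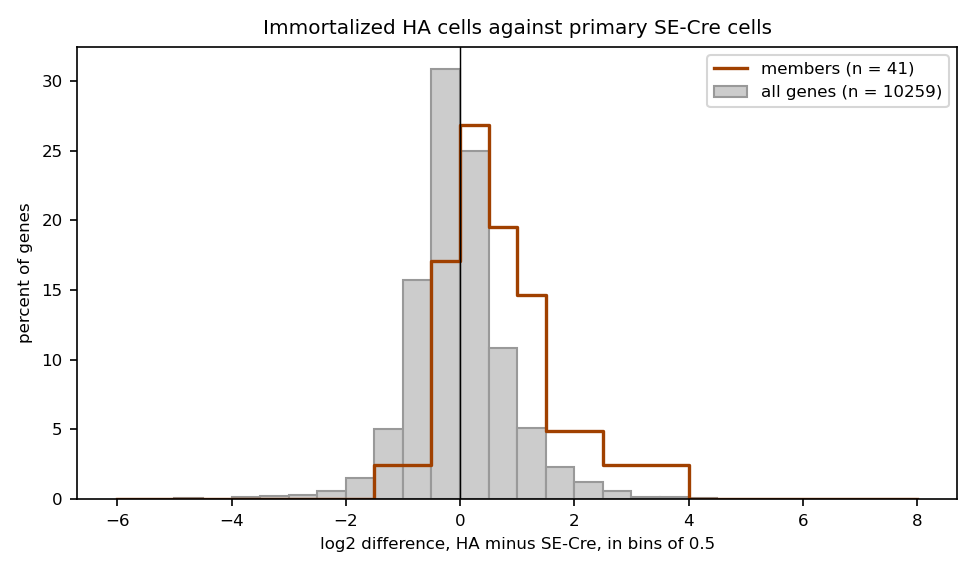
Log2 difference between HA and SE-Cre cells, in bins of 0.5, as percent of genes. Grey bars are all 10259 kept genes and the line is the 41 members. The members lie to the right of all genes, with medians of 0.61 and -0.07.

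By role, 12 of 14 antiviral effectors, all 6 inducible GTPases and both genes of the ISG15 system were higher in HA cells. Of all genes 24.7% were higher. Of the members counted, Oasl1, Oasl2, Oas2, Mx1 and Iigp1 were undetected on every SE-Cre array and had no room to be lower. Other kept probes of Ifit3, Oasl1, Usp18, Gbp2 and Irgm1 were called higher too. Those of Ifit2 (-0.04), Gbp3 (0.09) and Sp100 (0.04 and 0.15) were not called. Those of Adar differed by 1.10, 0.24 and -0.53, the last called lower. Usp18 read 5.23, 4.51 and 5.08 in SE-Cre cells and 8.66, 8.52 and 8.71 in HA cells on the scale of the 12 arrays, a difference of 3.69 ± 0.18 (SE; adjusted p = 3.97e-09). It was detected on 2 of the 3 SE-Cre arrays. Ifit3 read 5.65, 5.39 and 4.96 in SE-Cre cells and 8.47, 8.46 and 8.50 in HA cells, a difference of 3.14 ± 0.15 (SE). Ifi47, an immunity-related GTPase, read 9.54, 9.12 and 9.13 in SE-Cre cells and 12.01, 12.08 and 12.01 in HA cells, a difference of 2.77 ± 0.17 (SE). In each of these genes the groups lay far apart, and the Sox4fl/fl arrays lay near the SE-Cre arrays, as the heat map shows.

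Rsad2 and Isg15 were higher in HA cells by 2.06 ± 0.15 and 1.89 ± 0.26 (SE). Of the members that were undetected in SE-Cre cells, Oasl2 was at least 3.54-fold, Oasl1 at least 2.14-fold, Ifih1 at least 1.72-fold, Irf7 at least 1.39-fold, Oas2 at least 1.18-fold and Iigp1 at least 1.13-fold higher. Mx1 was undetected in both groups and passed the test, so no fold is given. MHC class I members did not share this direction: Psmb9 and Psmb10 were higher by 0.39 and 0.40, Tap1 was lower by -1.31 ± 0.13 (SE; adjusted p = 2.78e-06), and the other 4 were not called, though under scaling to the same median Tap2, Tapbp, B2m and Psmb8 were called higher. A second Tapbp probe was called higher without that scaling, at 0.57 (limma, adjusted p = 0.024). Second probes of Psmb10 (0.18), Psmb8 (0.50) and B2m (-0.09) were not called. Tap1 read 9.84, 9.87 and 9.53 in SE-Cre cells and 8.49, 8.44 and 8.40 in HA cells. Eif2ak2 was lower by -0.63, and under that scaling it was at 0.16 and not called. The calls of Psmb9, Psmb10, Gbp3, Trim25, Ifit2 and Sp100 were lost without single SE-Cre or HA arrays, with an adjusted p of up to 0.107 in those fits. For Trim25, at 0.33 on its brightest probe, a second probe detected on all 12 arrays was higher by 2.09 (limma, adjusted p = 1.02e-05).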

How the data were processed

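Total RNA of 12 samples was hybridized to single-colour Illumina bead arrays of 45281 probes, and 34885 of the probes carry 1 gene symbol in the platform annotation. The authors deposited raw intensities on a linear scale, each with a detection p-value, per the file headers. A second deposited table holds processed intensities, which by their values were quantile-normalized inside each experiment. The submitters' processing notes name R 3.0.1 without a role. How beads were scanned and summarized is not given in the sources used here.

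With neqc (limma 3.58.1, R 4.3.3) the raw intensities were corrected for background, with an offset of 16 before quantile normalization and log2. This was done per experiment of 6 arrays, and over all 12 arrays where experiments were compared. A probe entered a fit when detected (p-value under 0.05) on 3 or more of the 6 arrays, or of the 12, which gave 16454 probes for loss, 17504 for gain and 19663 for the 12-array fits. Tests were lmFit with eBayes, Benjamini-Hochberg adjustment over every probe of the fit, and a threshold of 0.05. The brightest kept probe, by its mean over 12 arrays, stands for a gene. Levels are log2 and are not comparable between probes. Where a group was undetected on all 3 arrays, a fold is given as "at least", after its values were raised to the weakest detected signal of each array. The 3 arrays a group limit the precision.

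The members and lists were chosen with earlier results of these data known. Named are all members, Sox4, and of each other pathway list up to 4 genes with the smallest p in loss or gain; exceptions are marked. Promoters were to be those of members called in both experiments or, with fewer than 3 such, of the 4 with the largest called differences. Lgp2, written in the sensor list, is a synonym of the member Dhx58 and was dropped there. The fits were tested on simulated intensities. As alternatives, each fit was rerun without background correction, on the authors' processed table, without a detection filter, on probes detected on every array, with the other scope of normalization, with median scaling, with a trended robust prior, with array weights, with replicate numbers as blocks, on means of a gene's probes, and without each array. No slide or scan is given that could serve as a block.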

Additional observations from a re-analysis of the deposited data

Results flagged for a closer look

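For 14 members the HA-Sox4 minus HA difference and the Sox4fl/fl minus SE-Cre difference, both on the log2 scale, differed from each other in the fit of 12 arrays with an adjusted p under 0.05 (limma). Values below are the former minus the latter. Gbp2 gave 1.31, from 0.59 and -0.71, and Bst2 gave -1.86, from -0.86 and 1.00; for both genes the differences had opposite signs. Members higher by this test were also Ifit3 (1.44, from 1.23 and -0.21), Rsad2 (1.43, from 1.62 and 0.19), Samhd1 (1.16, from 1.13 and -0.03) and Ifit2 (0.99, from 1.10 and 0.11).

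Members lower by this test were Dhx58 (-1.27, from -0.87 and 0.40), Ifi35 (-0.93, from -0.67 and 0.26), Tap2 (-0.92, from -1.41 and -0.49), Psmb10 (-0.75, from -0.77 and -0.02), Irf9 (-0.68, from -0.33 and 0.35), Psmb9 (-0.66, from -0.69 and -0.03), Parp14 (-0.64, from -0.35 and 0.28) and Trim25 (-0.62, from -0.65 and -0.03). The calls of Psmb9, Trim25, Parp14, Irf9, Ifi35 and Samhd1 were lost in some fits that left out 1 array, with an adjusted p of up to 0.104, and the other 8 held in all of them.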

How the results depend on the processing

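Of the calls of members, 1 of 3 on loss (Gbp2), 15 of 24 on gain, 8 of 14 in the difference between experiments and 21 of 29 in HA minus SE-Cre held under every alternative that gave a value. On loss, members higher numbered 5 with no background correction, with the authors' processed values and with trend and robust, 4 with probe means, and 1 without a detection filter, with joint normalization of 12 arrays and with median scaling. Members lower on loss numbered 0 with no background correction, with the authors' values, with detection on every array and with joint normalization, and 2 with the scaling and the probe mean. In the difference, members higher numbered 8 with no background correction and with the scaling, 9 with the authors' values and 3 with detection on every array. In HA minus SE-Cre, members lower numbered 4 with no background correction and 1 with the scaling, and members higher 15 with detection on every array, where 27 members were tested. With an array left out, members higher and lower ranged over 1 to 3 and 0 to 1 on loss, 7 to 9 and 10 to 15 on gain, 4 to 7 and 4 to 8 in the difference, and 24 to 27 and 2 to 3 in HA minus SE-Cre. On gain no other alternative moved a count by more than 1.5 times.

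With the probe mean, Adar on gain was at -0.42 and Irgm1 in the difference at 0.50. With the scaling, HA minus SE-Cre turned positive for B2m (0.85), Psmb8 (0.63), Irf2 (0.85), Eif2ak2 (0.16), Tap2 (0.77), Stat2 (0.76) and Tapbp (0.50), while the median of all genes moved from -0.07 to 0.53. Over all genes, the share of higher among calls on loss was 45.3% and fell to 32.6% with the scaling. The causes were not tested. The replicate numbers did not pair the samples: deviations of same-numbered arrays correlated between 0.00211 and 0.0407 on loss and between -0.0227 and -0.00477 on gain. With the replicate block, members higher and lower numbered 2 and 1 on loss, 9 and 11 on gain, 5 and 6 in the difference and 22 and 3 in HA minus SE-Cre. The authors' values and separate normalization were not run for HA minus SE-Cre, as they put the experiments on no common scale. Signal over background limits the 9 members that could not be tested on loss.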
